A study of Mus musculus with 8 samples.

Results

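The 10 genes described here are the Krüppel-like factor genes Klf2, Klf3, Klf4, Klf5 and Klf6 and the Iroquois genes Irx1, Irx2, Irx3, Irx4 and Irx5, chosen by name from a table of 23393 mouse gene symbols. Their transcripts were measured by poly(A) RNA-seq in the epithelium of the mouse embryonic gut at E16.5, late in gestation, in 8 libraries, 2 from each of 4 tissues: colon, proximal small intestine (written here as intestine), hindstomach, which is the glandular part of the rodent stomach, and forestomach, its squamous part. All embryos carried ShhCre with R26YFP/+, a Cre driven by the Shh locus that marks gut epithelium with a yellow fluorescent reporter; none was treated, and the labels do not say how many embryos gave a library. Forestomach epithelium was peeled by hand after Dispase, whereas colon, intestine and hindstomach epithelium came off by shaking in EDTA, in the hindstomach at a higher concentration, so tissue and isolation method cannot be told apart. Values are FPKM, a fragment count per transcript length and library size. Of the 10 genes, 8 reached at least 1 FPKM in at least 2 libraries and were tested, as were 12894 genes in all; Irx1 and Irx4 did not and are given by their values alone.

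Krüppel-like factors are transcription factors that bind GC-rich and CACCC-containing DNA through zinc fingers at the end of the protein. In the gut Klf4 is best known from differentiated surface epithelium and goblet cells and Klf5 from dividing epithelium, and Klf4 is also needed for the barrier of mouse skin, a squamous epithelium. Iroquois genes encode homeodomain factors of the TALE class, lie in clusters in mammalian genomes and are known for setting territories in the embryo, among them heart, limb and neural tube. Nearly all that is known of Irx function comes from tissues other than the gut epithelium.

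The Irx genes lie in clusters of 3, in the GRCm38 build as annotated by GENCODE M21. Irx1 (chr13:71957921-71963723, minus strand), Irx2 (chr13:72628820-72634198, plus strand) and Irx4 (chr13:73260479-73269608, plus strand) share one cluster. Irx3 (chr8:91798525-91802067, minus strand) and Irx5 (chr8:92357625-92376286, plus strand) share the other with Irx6. Gaps between neighbours measured 665.1 kb from Irx1 to Irx2, 626.3 kb from Irx2 to Irx4 and 555.6 kb from Irx3 to Irx5, with 0 protein-coding genes in each. The Klf genes are scattered: Klf4 (chr4:55527143-55532466, minus strand), Klf6 (chr13:5861482-5870394, plus strand) and Klf2 (chr8:72319033-72321656, plus strand) lie far from the Irx clusters, Klf3 is on chromosome 5 and Klf5 on chromosome 14.

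Klf4 among the tested Klf genes, and Irx2 among the tested Irx genes, had the largest fold change of intestine against forestomach on the log2(FPKM + 1) scale, so the 250 bases upstream of their starts are shown, 5′ to 3′ on the gene's strand, from RefSeq (GRCm38.p6). The windows are chr4:55532476-55532725 on the minus strand and chr13:72628570-72628819 on the plus strand. Capitals mark GGGCGG on either strand, a GC box of the kind that zinc fingers of the Klf and Sp families bind.
Klf4: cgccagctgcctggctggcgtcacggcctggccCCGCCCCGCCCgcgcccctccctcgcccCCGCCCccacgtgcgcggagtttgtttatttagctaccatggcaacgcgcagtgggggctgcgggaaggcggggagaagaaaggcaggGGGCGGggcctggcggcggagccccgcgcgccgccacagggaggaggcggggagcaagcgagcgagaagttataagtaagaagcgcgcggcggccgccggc
Irx2: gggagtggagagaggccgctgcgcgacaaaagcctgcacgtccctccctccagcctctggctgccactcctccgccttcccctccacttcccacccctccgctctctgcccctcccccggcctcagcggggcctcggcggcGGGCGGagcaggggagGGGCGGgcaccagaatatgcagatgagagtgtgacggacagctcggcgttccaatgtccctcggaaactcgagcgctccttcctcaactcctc

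The Klf4 window held 4 GC boxes, the leftmost pair sharing 1 base, and no CACCC, with 74.0% G or C, and the Irx2 window held 2 GC boxes and 1 CACCC, with 68.4% G or C. Across all 32851 RefSeq promoter windows of the same length, 32.7% held GGGCGG and 52% held CACCC on either strand, and the median content of G or C was 52.4%. Windows were at hand for 7 of the 10 genes, Klf2, Klf3, Klf4, Klf6, Irx2, Irx3 and Irx4. GGGCGG occurred in 6 of these 7, the exception being Irx3. ACANNTGT, a palindrome bound by Iroquois proteins, occurred in none of the 7 and in 6.31% of all windows, and TATAAA occurred in none of the 7 and in 12.4% of all windows. These letter matches are a description of the windows and not of binding.

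One library stood apart. Of all FPKM in the library labelled forestomach replicate 1, 52.5% belonged to its 10 top genes, against 6.27% to 17.4% in the other 7, and it held many gastric glandular transcripts, with 167019 summed FPKM over 10 marker genes against 199 in forestomach replicate 2, while its 10 squamous markers summed to 1798 FPKM against 43052. The forestomach pair correlated less (Pearson's r = 0.713 across the 12894 genes, which are not independent replicates) than the other pairs did (0.959 to 0.984). By correlation with the 6 libraries of other tissues replicate 2 stood further off, at 0.598 to 0.733, against 0.627 to 0.801 for replicate 1. The 10 intestinal markers summed to 14259 and 4516 FPKM in the colon, 18851 and 27686 FPKM in the intestine, 3539 and 4063 FPKM in the hindstomach and 83.2 and 3.62 FPKM in the forestomach. By summed FPKM the hindstomach libraries thus held more intestinal than gastric marker transcript (1625 and 2230 FPKM). By the median marker the order was the reverse in both hindstomach libraries. In replicate 2 the median log2(FPKM + 1) was 7.78 for the gastric and 6.49 for the intestinal markers. Of the 9 intestinal markers tested, 8 were called higher in the hindstomach than in the forestomach, against 4.26% of all genes. The part of intestinal transcript in the hindstomach comparisons was not tested. Since no label states that replicates were separate embryos, the p-values reflect how far these libraries spread, and that spread may be technical. A fit without forestomach replicate 1 or without replicate 2 takes its spread from the other tissues alone. Its adjusted p-values therefore do not measure how far forestomach libraries vary.

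Klf4, Klf6, Irx2, Irx3 and Irx5 were each higher in both forestomach libraries than in all 6 others, an arrangement found in 5.17% of the genes tested. Irx2, Irx3 and Irx5 were also higher in all 4 stomach libraries than in all 4 libraries of intestine and colon, as were 4.11% of the genes. Klf4 and Klf6 were lower in both intestine libraries than in the 6 others, as were 17.4% of the genes. Klf2, Klf3 and Klf5 showed none of these arrangements. In bulk samples fewer cells of a type and less RNA per cell cannot be told apart.

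**Figure D1:**
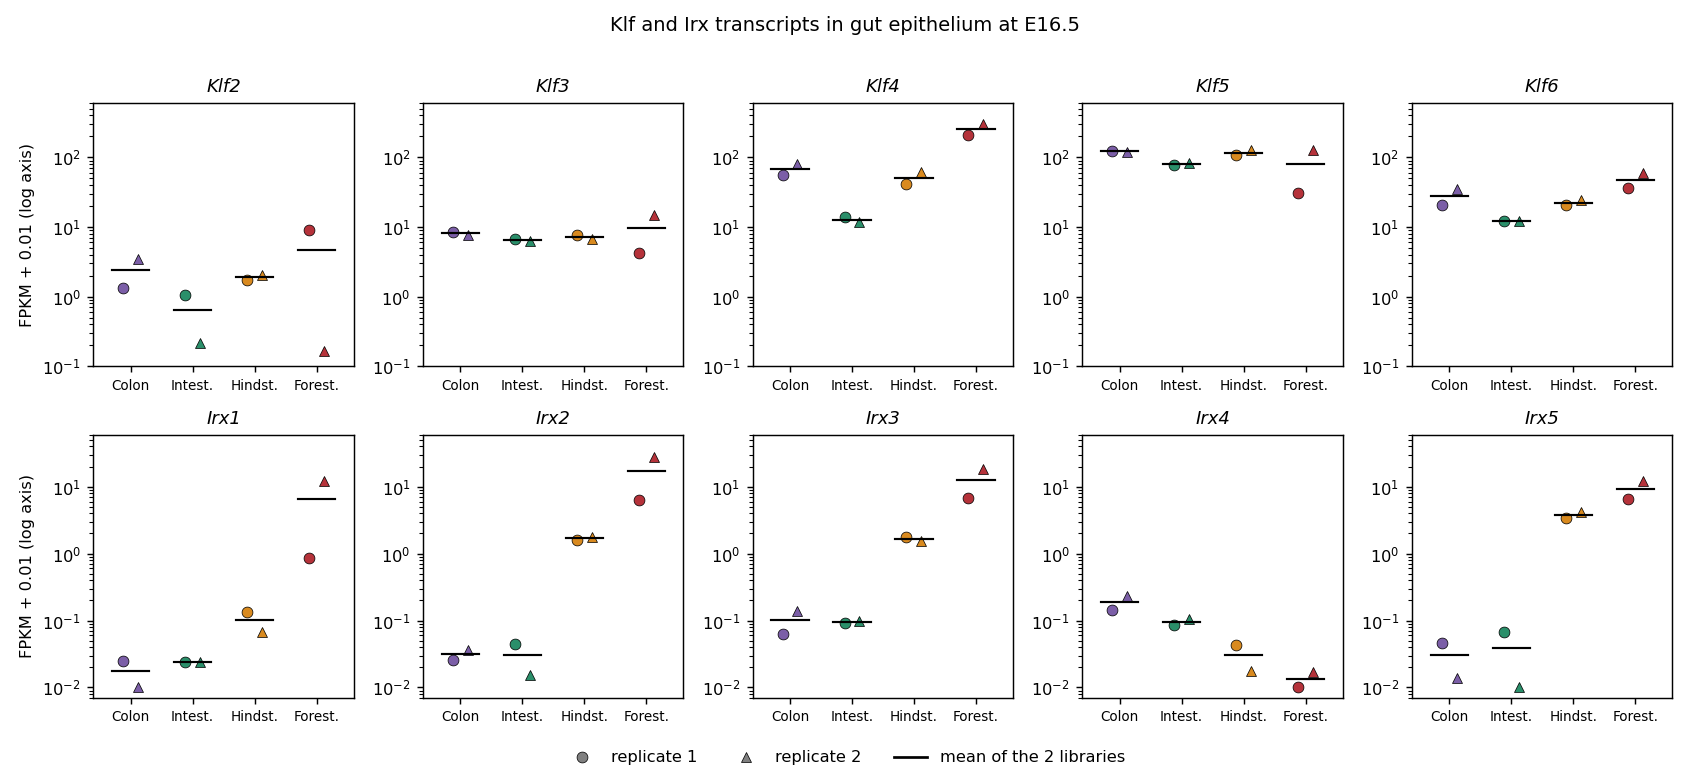
FPKM + 0.01 on a log axis for each of the 10 genes by tissue; a circle is replicate 1, a triangle replicate 2 and a bar their mean. Klf4 is lowest in the intestine (11.9 and 13.7 FPKM) and highest in the forestomach (212 and 306 FPKM), Irx2, Irx3 and Irx5 stand above 1 FPKM in the stomach libraries alone, and Klf5 is at 78.7 FPKM or more outside forestomach replicate 1.

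Klf4 had 56.6 and 81.1 FPKM in the colon, 13.7 and 11.9 FPKM in the intestine, 41.3 and 61.2 FPKM in the hindstomach and 212 and 306 FPKM in the forestomach. Both forestomach libraries stood far above the rest, both intestine libraries stood below the rest, and the colon and hindstomach libraries overlapped. The order of the means was forestomach (259 ± 66.6), colon (68.8 ± 17.4), hindstomach (51.3 ± 14.1) and intestine (12.8 ± 1.31 FPKM; SD, n = 2 each). In the forestomach the mean placed Klf4 at percentile 98.7 of the genes tested, and in the intestine at percentile 67.

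Klf4 fell 18.6-fold in the intestine against the forestomach (log2 fold change −4.22 ± 0.31 SE, adjusted p = 0.000874 by limma with Benjamini-Hochberg adjustment). All fold changes here are on the log2(FPKM + 1) scale, which understates the change of low genes. A gene was called when its adjusted p was under 0.05 and its change at least 2-fold, and this call held under all 19 alternatives that could be computed for it. Klf4 also fell 4.98-fold in the hindstomach against the forestomach (−2.32 ± 0.31, limma adjusted p = 0.0161) and 3.72-fold in the colon against the forestomach (−1.89 ± 0.31, limma adjusted p = 0.0149). The hindstomach call was lost without either hindstomach library (adjusted p = 0.152 and 0.0818) and without either intestine library (0.0557 and 0.0562), and the colon call without colon replicate 1 (0.1). Without forestomach replicate 1 the differences from the forestomach were −4.48 for the intestine, −2.16 for the colon and −2.58 for the hindstomach, and all were called.

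Outside the forestomach, Klf4 fell 3.73-fold in the intestine against the hindstomach (−1.90 ± 0.31, limma adjusted p = 0.0288), a call that was lost without any 1 of the 4 hindstomach and intestine libraries, with adjusted p between 0.14 and 0.271. In the colon against the intestine the Klf4 difference was 2.32 ± 0.31, 5.00-fold on this scale with a 95% interval of 1.57 to 3.07, and it missed the threshold (limma adjusted p = 0.0609). The same difference passed when forestomach replicate 1, replicate 2 or both were left out. Its standard error was 0.25 without replicate 1 and 0.25 without replicate 2. The difference also passed in a fit of only these 2 tissues and was not called under the other 16 of 20 alternatives. Colon and hindstomach did not differ beyond their spread in Klf4 (0.42, 95% interval −0.33 to 1.17, limma adjusted p = 0.715).

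Klf6, a broadly transcribed member of the family that responds quickly to growth factors and injury, had 20.96 and 35.43 FPKM in the colon, 12.31 and 12.35 FPKM in the intestine, 20.5 and 24.3 FPKM in the hindstomach and 35.9 and 59.1 FPKM in the forestomach. It kept the tissue order of Klf4 within a narrower range, and colon replicate 2 lay just under forestomach replicate 1. Klf6 fell 3.53-fold in the intestine against the forestomach (−1.82 ± 0.33, limma adjusted p = 0.0146), a call lost without either intestine library (0.0928 and 0.104). The differences of hindstomach (−1.01 ± 0.33, limma adjusted p = 0.115) and colon (−0.73 ± 0.33, limma adjusted p = 0.184) from the forestomach missed the threshold and passed it without forestomach replicate 1 (adjusted p = 0.0227 and 0.0400).

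Klf4 and Klf6 are often transcribed like immediate early genes, which cells switch on within minutes of handling, and the isolation differed between tissues. The 12 immediate early genes examined, Fos, Jun and Egr1 among them, summed to 141 and 172 FPKM in the colon, 121 and 124 FPKM in the intestine, 218 and 259 FPKM in the hindstomach and 279 and 313 FPKM in the forestomach. By this sum the intestine was lowest and the forestomach highest, as for Klf4, but the hindstomach lay above the colon, where Klf4 levels overlapped. Jun had 49.8 and 54.5 FPKM in the hindstomach, above its 37.9 and 30.8 FPKM in the forestomach. Zfp36 was highest in intestine replicate 2 (27.7 FPKM) and lowest in forestomach replicate 1 (14.5 FPKM). The 12 genes thus did not all keep the order of their sum. Of the 11 that were tested, 7 were called lower in the intestine than in the forestomach, 3 in the hindstomach (Junb, Ier3 and Dusp1) and 4 in the colon, against 5.78%, 1.33% and 2.41% of all genes in the same order. Their part in the Klf4 and Klf6 differences was not tested.

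Klf5, known in mouse for its role in dividing intestinal epithelium, had 122 and 121 FPKM in the colon, 78.7 and 82.0 FPKM in the intestine, 107 and 127 FPKM in the hindstomach and 31.0 and 128 FPKM in the forestomach. Of the 5 Klf genes it had the highest level in each of the 6 colon, intestine and hindstomach libraries, whereas Klf4 had the highest level in both forestomach libraries, at 6.83 and 2.38 times the Klf5 level on the FPKM scale. The forestomach libraries were the lowest and the highest of the 8 for Klf5, 4.14-fold apart, and its fold changes of all 3 other tissues against the forestomach missed the threshold. The difference of hindstomach from forestomach was 0.87 with a 95% interval of −0.60 to 2.34 (limma adjusted p = 0.356). Its direction depended on which forestomach library was used: −0.14 without replicate 1 and 1.88 without replicate 2 (limma adjusted p = 0.513 and 0.00274).

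Klf3, a repressor that works with CtBP, was the most even of the 5, with 8.49 and 7.68 FPKM in the colon, 6.78 and 6.39 FPKM in the intestine, 7.54 and 6.80 FPKM in the hindstomach and 4.29 and 15.1 FPKM in the forestomach. Again the forestomach libraries bracketed all others, and the 6 remaining libraries spanned only 6.39 to 8.49 FPKM. No comparison of Klf3 passed with all libraries. The intestine stood lower than the forestomach without forestomach replicate 1 (−1.09 ± 0.15, limma adjusted p = 0.00367) and higher without replicate 2 (0.52 ± 0.16, limma adjusted p = 0.0404, under 2-fold). Klf3 overlaps the antisense transcript Gm20033 over 404 exonic bases, and since the strand setting is not given in the sources used here, reads of the overlap cannot be assigned.

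Klf2, which in mouse is known above all from vessel lining under blood flow, had 1.33 and 3.48 FPKM in the colon, 1.04 and 0.208 FPKM in the intestine, 1.70 and 2.06 FPKM in the hindstomach and 9.14 and 0.155 FPKM in the forestomach. The forestomach libraries differed 58.9-fold and held the highest and the lowest value of the series, and no comparison of Klf2 passed with all libraries. Summed FPKM of 8 endothelial markers, Pecam1 and Cdh5 among them, was 26.7 and 73.1 in the colon, 23.6 and 4.95 in the intestine, 16.52 and 21.57 in the hindstomach and 27.1 and 1.60 in the forestomach. The libraries lowest in endothelial markers, forestomach replicate 2 and intestine replicate 2, were also the lowest in Klf2, and all 8 markers were under 1 FPKM in forestomach replicate 2. The highest libraries were not the same. Klf2 was highest in forestomach replicate 1 (9.14 FPKM, endothelial sum 27.1). The endothelial sum was highest in colon replicate 2 (73.1, Klf2 3.48 FPKM). Whether endothelial RNA contributed to Klf2 was not tested.

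Irx2, Irx3 and Irx5 formed a common pattern of high forestomach, lower hindstomach and near absence from intestine and colon. Irx2 had 0.0159 and 0.0266 FPKM in the colon, 0.0352 and 0.00509 FPKM in the intestine, 1.62 and 1.78 FPKM in the hindstomach and 6.38 and 27.7 FPKM in the forestomach. The stomach libraries did not overlap those of the bowel, and hindstomach and forestomach did not overlap each other. Irx2 fell 14.3-fold in the intestine (−3.83 ± 0.59, limma adjusted p = 0.00867) and 14.3-fold in the colon (−3.83 ± 0.59, limma adjusted p = 0.0126) against the forestomach. Both calls were lost without either library of the bowel tissue compared, with adjusted p of 0.0601 and 0.0704 in the intestine and 0.0886 and 0.0693 in the colon. The difference of hindstomach from forestomach was −2.43 ± 0.59 and missed the threshold (limma adjusted p = 0.0663), with the forestomach libraries 4.35-fold apart. The difference was −3.41 without forestomach replicate 1 and −1.45 without replicate 2. In those fits the spread between the forestomach libraries did not enter the standard error. The fall in the intestine was 28.2-fold without replicate 1 and 7.23-fold without replicate 2, and that in the colon 28.1-fold and 7.22-fold.

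Irx3 had 0.0534 and 0.130 FPKM in the colon, 0.0823 and 0.0895 FPKM in the intestine, 1.76 and 1.55 FPKM in the hindstomach and 6.81 and 18.3 FPKM in the forestomach. The steps between tissues lay where those of Irx2 lay, although the genes sit on different chromosomes. Irx3 fell 11.3-fold in the intestine (−3.50 ± 0.42, limma adjusted p = 0.00398) and 11.2-fold in the colon (−3.49 ± 0.42, limma adjusted p = 0.00554) against the forestomach, the colon call being lost without colon replicate 1 (0.0522). Irx3 also fell 4.62-fold in the hindstomach against the forestomach (−2.21 ± 0.42, limma adjusted p = 0.0389). That call was lost without any 1 of the 6 hindstomach, intestine and colon libraries, with adjusted p from 0.0804 to 0.242, and with a pseudocount of 5 (0.0636) or no filter on low values (0.0635). Without forestomach replicate 1 the Irx3 fall was 17.7-fold in the intestine, 17.7-fold in the colon and 7.26-fold in the hindstomach, and without replicate 2 it was 7.20-fold, 7.16-fold and 2.94-fold, all called. Irx3 overlaps the antisense transcript Irx3os over 124 exonic bases, so reads of that stretch cannot be assigned.

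Irx5 had 0.0363 and 0.00404 FPKM in the colon, 0.0584 and 0 FPKM in the intestine, 3.35 and 4.19 FPKM in the hindstomach and 6.60 and 12.1 FPKM in the forestomach. It was the highest Irx gene in both hindstomach libraries, and its mean was 3.77 FPKM in the hindstomach against 9.35 FPKM in the forestomach, where Irx2 averaged 1.70 against 17.0 and Irx3 1.66 against 12.5 FPKM; whether these steps differ between the genes was not tested. Irx5 fell 9.70-fold in the intestine (−3.28 ± 0.30, limma adjusted p = 0.00170) and 9.78-fold in the colon (−3.29 ± 0.30, limma adjusted p = 0.00216) against the forestomach, and no library left out ended either call. The difference of hindstomach from forestomach was −1.07 ± 0.30 and missed the threshold (limma adjusted p = 0.0871), and it was called without replicate 1 (−1.46, limma adjusted p = 0.00575) but stayed under 2-fold without replicate 2 (−0.68). Irx5 was the 1 Irx gene called between hindstomach and bowel: it fell 4.62-fold in the intestine (−2.21 ± 0.30, limma adjusted p = 0.0204) and 4.66-fold in the colon (−2.22 ± 0.30, limma adjusted p = 0.0290). Leaving out any 1 hindstomach, intestine or, for the colon comparison, colon library ended these calls, with adjusted p between 0.11 and 0.315. The intestine call held without either colon library.

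The hindstomach libraries lay within 1.25-fold of each other for Irx2, Irx3 and Irx5. The fit estimates 1 spread over the 4 tissues, the forestomach pair included. When forestomach replicate 1, replicate 2 or both were left out, all 3 genes were called lower in the intestine than in the hindstomach. They were also called lower in the colon than in the hindstomach. Their differences with either replicate left out equalled those with all libraries, and the standard errors were smaller. For Irx2 in the intestine the difference was −1.40 each time. Its standard error was 0.59 with all libraries, 0.15 without replicate 1 and 0.16 without replicate 2. Between colon and intestine the differences of the 3 genes were all within 0.02 of 0 on the log2 scale. Because both levels were under 0.2 FPKM, the pseudocount of 1 fixes such differences near 0, and no order of colon and intestine was read from them.

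Irx1, the cluster neighbour of Irx2, had 0.0147 and 0 FPKM in the colon, 0.0139 and 0.0141 FPKM in the intestine, 0.125 and 0.0572 FPKM in the hindstomach and 0.851 and 12.1 FPKM in the forestomach. Both forestomach libraries stood above all others, but they differed 14.2-fold and just 1 library reached 1 FPKM, so Irx1 was not tested. Irx4, next in the cluster and known in mouse from the ventricles of the heart, had 0.134 and 0.220 FPKM in the colon, 0.0761 and 0.0961 FPKM in the intestine, 0.0334 and 0.00743 FPKM in the hindstomach and 0 and 0.00688 FPKM in the forestomach. Its mean was higher in the colon and intestine than in the stomach tissues, unlike the other 4 Irx genes, at levels under 1 FPKM in every library, where no interval can be given because read counts are not in the table.

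Summed over the 5 Irx genes, FPKM was 0.254 and 0.380 in the colon, 0.266 and 0.205 in the intestine, 6.89 and 7.59 in the hindstomach and 20.6 and 70.2 in the forestomach. The make-up of the sum differed between the forestomach libraries: Irx1 held 4.12% of it in replicate 1 and 17.3% in replicate 2, and Irx5 held 32.0% in replicate 1 and 17.2% in replicate 2. Forestomach replicate 2, the library with more squamous transcript, had 1.83-fold to 14.2-fold more of Irx1, Irx2, Irx3 and Irx5 than replicate 1.

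Markers of other cells moved with some of these values. The 10 squamous markers summed to 11.8 and 12.5 FPKM in the colon, 4.46 and 4.51 FPKM in the intestine, 253 and 32.1 FPKM in the hindstomach and 1798 and 43052 FPKM in the forestomach. Like the Irx sum they were highest in the forestomach and next in the hindstomach, where the squamous sums of the pair lay far apart and the Irx sums were 6.89 and 7.59 FPKM. The part of squamous transcript in the Irx levels was not tested. The 10 markers of mesenchyme and smooth muscle summed to 613 and 1332 FPKM in the colon, 296 and 65.3 FPKM in the intestine, 168 and 297 FPKM in the hindstomach and 3441 and 29.7 FPKM in the forestomach. The library with the most mesenchymal transcript, forestomach replicate 1, had the second highest Irx sum (20.6 FPKM), colon replicate 2 with the second most had 0.380 FPKM, and forestomach replicate 2 with the least had the highest (70.2 FPKM). The part of mesenchymal transcript in the Irx levels was not tested.

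**Figure D2:**
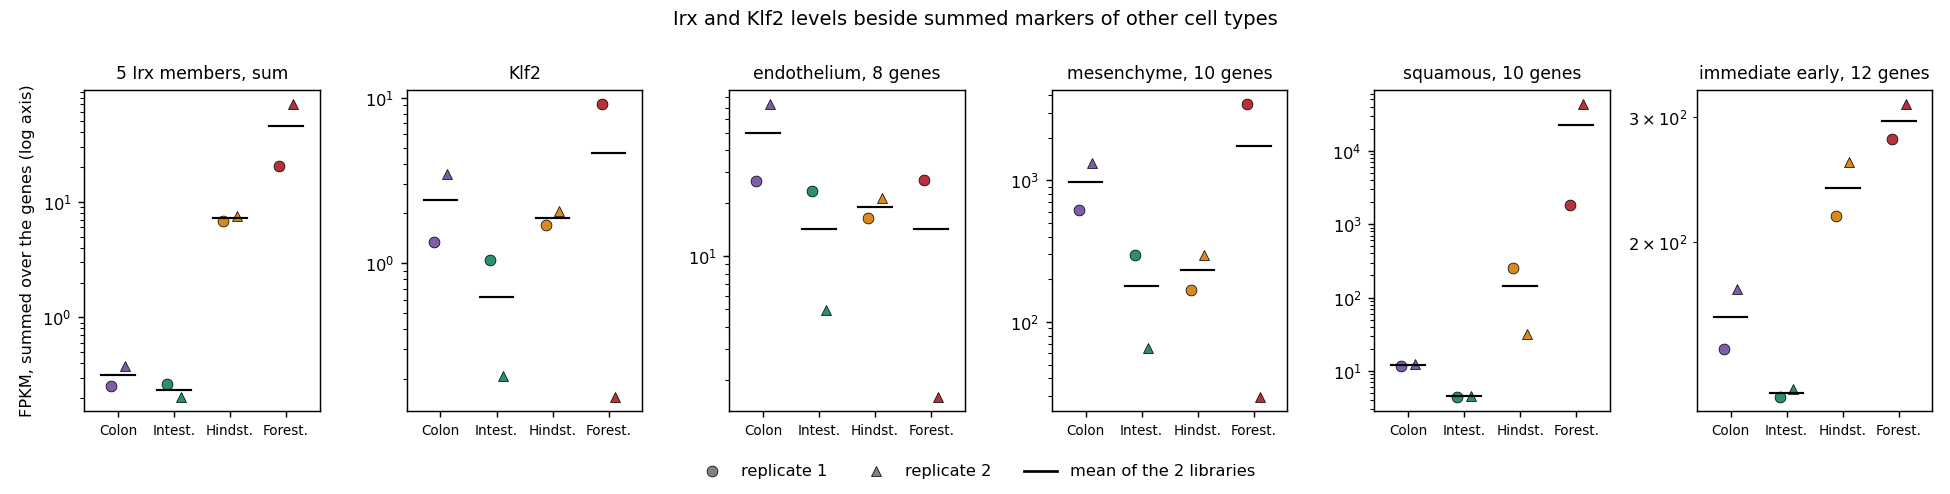
FPKM on log axes by tissue, summed over the 5 Irx genes, for Klf2, and summed over markers of endothelium, mesenchyme and squamous epithelium and over immediate early genes; a circle is replicate 1, a triangle replicate 2 and a bar their mean. The Irx sum is highest in forestomach replicate 2 (70.2 FPKM), where mesenchymal markers are lowest (29.7 FPKM). It is second highest in forestomach replicate 1 (20.6 FPKM), where mesenchymal markers are highest (3441 FPKM). Klf2 and the endothelial markers are both lowest in forestomach replicate 2 (0.155 and 1.60 FPKM). Klf2 is highest in forestomach replicate 1 (9.14 FPKM) and the endothelial markers in colon replicate 2 (73.1 FPKM).

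Counted per comparison, 5 of the 8 tested genes were called lower in the intestine than in the forestomach (Klf4, Klf6, Irx2, Irx3 and Irx5), against 5.78% of all 12894 genes called lower there. In the colon against the forestomach 4 of 8 were called lower (Klf4, Irx2, Irx3 and Irx5), against 2.41% of all genes. In the hindstomach against the forestomach 2 of 8 were called lower (Klf4 and Irx3), against 1.33% of all genes. In the intestine against the hindstomach 2 of 8 were called lower (Klf4 and Irx5), against 2.47%, and in the colon against the hindstomach 1 of 8 (Irx5), against 0.434%. None of the 8 was called higher in these 5 comparisons, against 11.3%, 9.2%, 4.26%, 2.55% and 1.07% of all genes in the same order. In the colon against the intestine limma called none of the 8 in either direction, against 0.38% of all genes. The unadjusted limma p was under 0.05 for Klf4 and Klf6, whose adjusted p was 0.0609 and 0.311. The share of all genes under that unadjusted threshold was not computed.

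The median log2 fold change of the 8 genes was −2.55 for intestine minus forestomach, beside 0.11 over all genes tested, −1.31 for colon minus forestomach, beside 0.41, and −1.04 for hindstomach minus forestomach, beside 0.39. It was −1.08 for intestine minus hindstomach, beside −0.25, 0.10 for colon minus hindstomach, beside 0.017, and 0.42 for colon minus intestine, beside 0.23. After median-of-ratios scaling the medians over all genes lay between −0.085 and 0.052, and the same members were called in each comparison. Scaling every library to the same total FPKM ended 5 calls: Irx3 in the hindstomach against the forestomach (limma adjusted p = 0.0654), Klf6 in the intestine (0.0642) and Klf4 in the colon (0.0505) against the forestomach, Klf4 in the intestine (0.058) and Irx5 in the colon (0.0557) against the hindstomach. A fit of only the 2 tissues compared, which leaves 2 residual degrees of freedom, ended all calls against the forestomach except those of Klf4 and Irx5 in the intestine. A pseudocount of 5 ended the calls of Irx5 against the hindstomach (limma adjusted p = 0.0604 in the intestine and 0.122 in the colon). All 3 comparisons with the forestomach share its libraries, so their calls are not independent of each other.

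The counts of called genes were larger when the library labelled forestomach replicate 1 was left out: 6 of 8 in the intestine against the forestomach, 5 in the colon and 5 in the hindstomach, all lower. Over all genes the percentages called lower then were 11.3%, 6.44% and 6.55% in the same order. Against the hindstomach the intestine had 4 of 8 called lower, against 9.96% of all genes, and the colon 3 of 8, against 3.1%. In the colon against the intestine Klf4 alone was called, higher, against 2.5% of all genes called higher. With forestomach replicate 2 left out in place of replicate 1, the counts were 7, 6 and 5 of 8 against the forestomach, 1 of them, Klf5, higher in each, and Klf2 was called lower in all 3. Over all genes 31.2%, 28.1% and 24.7% were then called in either direction for intestine, colon and hindstomach.

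**Figure D3:**
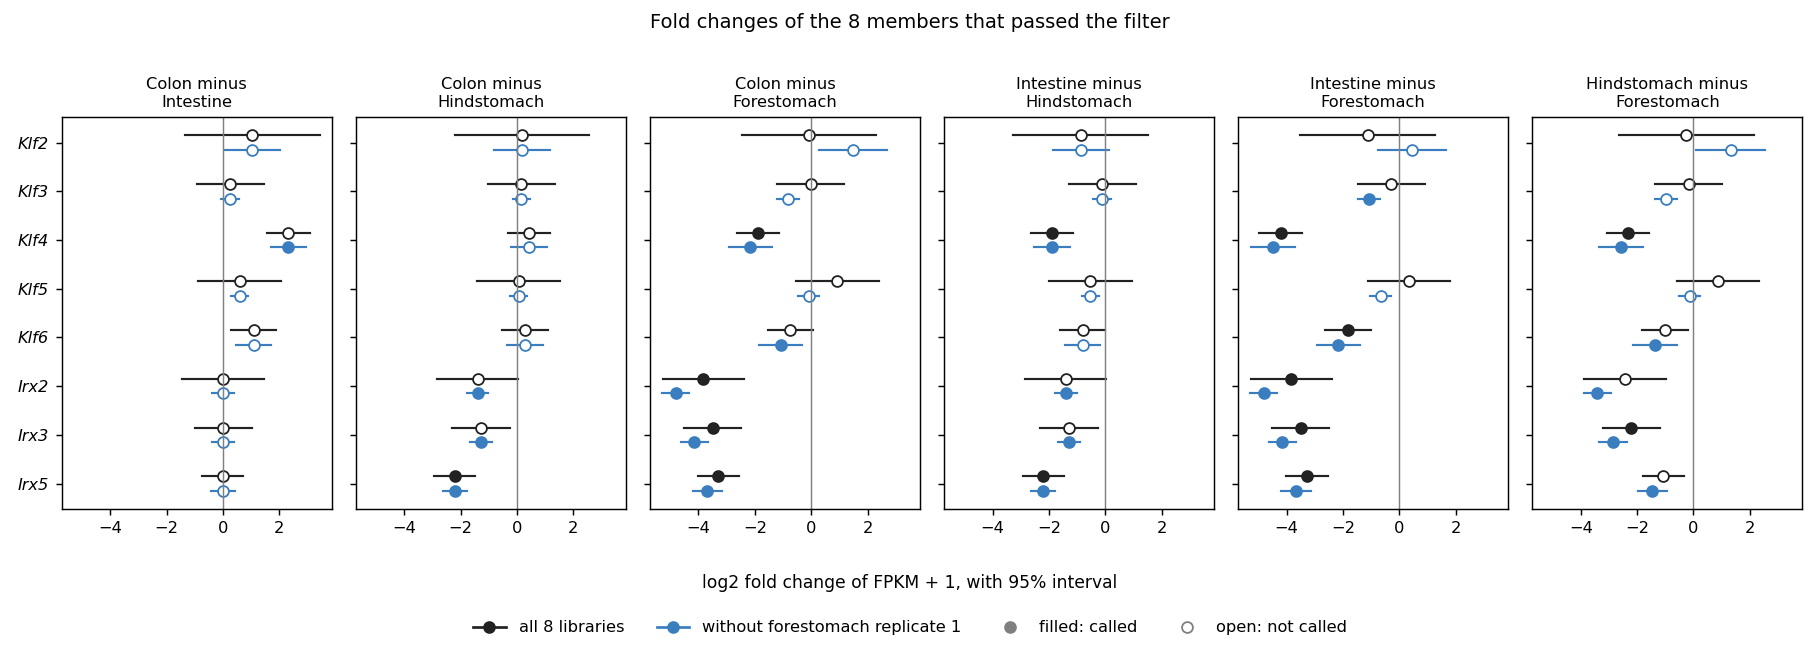
Log2 fold changes of FPKM + 1 with 95% intervals for the 8 tested genes in the 6 comparisons, with all libraries (black) and without forestomach replicate 1 (blue); filled points were called. With all libraries Klf4 reaches −4.22 and Irx2 −3.83 in the intestine against the forestomach, and the intervals of Irx2, Irx3 and Irx5 narrow without that replicate. Without forestomach replicate 2, not drawn, they narrow as well, since a single forestomach library gives no spread.

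Genes with the most similar pattern were ranked by the mean absolute difference of log2(FPKM + 1), centred on each gene's mean, over the 8 libraries. Nearest to Irx2 were Pitx1 (0.141), Irx3 (0.165) and Serpinb8 (0.212), beside a median distance of 1.43 from Irx2 to all genes tested. Nearest to Irx3 were Irx2 (0.165), Serpinb8 (0.182) and Pitx1 (0.213), with a median of 1.32. Pitx1, a homeobox gene best known for hindlimb identity, had 7.71 and 10.6 FPKM in the colon, 7.32 and 6.95 FPKM in the intestine, 18.7 and 19.6 FPKM in the hindstomach and 66.2 and 252 FPKM in the forestomach. On the log2(FPKM + 1) scale its steps were close to those of Irx2, whose low values the pseudocount compresses. In FPKM the steps differed: Irx2 averaged 0.0202 in the intestine and 1.70 in the hindstomach. Unlike Irx2, Pitx1 was present in bowel.

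Irx5 was closest to Zbtb7c (0.320), Glb1l2 (0.333) and Cited4 (0.348), with a median distance of 1.42, so neither Irx2 nor Irx3 was among its nearest 3. Klf4 was closest to Upk1b (0.287), which encodes a uroplakin of bladder lining, to Gsn (0.301), which encodes the actin-severing protein gelsolin, and to Ahnak (0.304), with a median distance of 1.27. Gsn had 30.0 and 55.4 FPKM in the colon, 16.4 and 8.20 FPKM in the intestine, 34.6 and 45.1 FPKM in the hindstomach and 213 and 168 FPKM in the forestomach. Gsn thus shared the low intestine, the overlapping colon and hindstomach and the high forestomach of Klf4. Klf6 was closest to Cpne2 (0.106), Cbarp (0.110) and Guk1 (0.132), beside a median of 0.693, which is smaller because Klf6 varied less. With 8 libraries and 12894 genes to choose from, small distances are a description of these libraries.

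**Figure D4:**
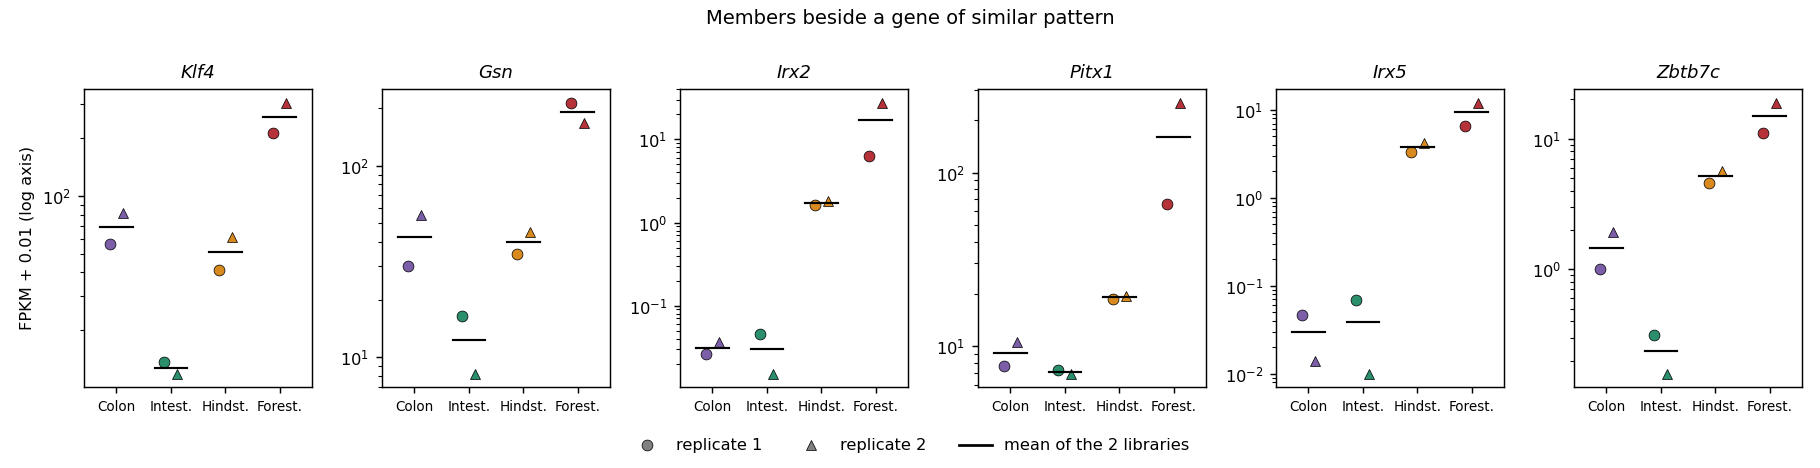
FPKM + 0.01 on log axes by tissue for Klf4, Irx2 and Irx5, each beside 1 of its 3 nearest genes in pattern (Gsn, Pitx1 and Zbtb7c); a circle is replicate 1, a triangle replicate 2 and a bar their mean. Pitx1 shares the tissue order of the stomach libraries with Irx2 but stays at 6.95 FPKM or more in colon and intestine, where Irx2 is at 0.0352 FPKM or less.

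Of 21 other Klf and Sp genes 13 were tested, and with all libraries 1 was called: Klf15 was lower in the intestine (−1.78, limma adjusted p = 0.0369) and in the colon (−1.80, limma adjusted p = 0.0468) than in the forestomach. Over all genes 5.78% and 2.41% were called lower in these 2 comparisons. Klf15 had 0.750 and 1.48 FPKM in the colon, 1.62 and 0.700 FPKM in the intestine, 3.77 and 3.24 FPKM in the hindstomach and 9.78 and 3.91 FPKM in the forestomach. The most abundant by mean over the 8 libraries were Sp3 (20.2 FPKM), Sp1 (15.3 FPKM), Klf10 (13.6 FPKM) and Klf13 (9.48 FPKM), so Klf5, Klf4 and Klf6 exceeded all 21 in mean level. The median fold change of the 13 was −0.20 for intestine minus forestomach, beside 0.11 over all genes. Without forestomach replicate 1, 3 of the 12 then tested were called lower in the intestine than in the forestomach, Klf12, Klf15 and Klf16, against 11.3% of all genes. In the same fit Klf9 was called higher in the colon than in the forestomach (limma adjusted p = 0.0237), as were 19.1% of all genes, Klf12 lower in the hindstomach and Klf15 lower in the colon than in the forestomach, and Klf15 lower in the intestine than in the hindstomach. Sp6, named after its values were seen, had 1.51 and 58.2 FPKM in the forestomach and at most 0.238 FPKM elsewhere, and no comparison of it passed.

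Of 12 other TALE homeobox genes 8 were tested. Irx6, the third gene of the Irx3 and Irx5 cluster, was at 0.0958 FPKM or less in every library and was not tested. Pbx3 fell in the intestine against the forestomach (−1.59, limma adjusted p = 0.0325), and Meis2 (−1.83) and Tgif1 (−1.23) fell in the intestine against the hindstomach (limma adjusted p = 0.0467 and 0.0424). Over all genes 5.78% were called lower in the intestine against the forestomach and 2.47% against the hindstomach. Meis2 had 1.94 and 4.66 FPKM in the colon, 1.496 and 1.132 FPKM in the intestine, 7.26 and 7.11 FPKM in the hindstomach and 2.39 and 1.37 FPKM in the forestomach. Both hindstomach libraries stood above all others, whereas Irx2, Irx3 and Irx5 were higher in the forestomach than in the hindstomach. Pbx2 was the most abundant of the list, with a mean of 18.8 FPKM. The median of the 8 was −1.16 for intestine minus hindstomach, beside −0.25 over all genes, and 3 of the 8 were called lower there without forestomach replicate 1, against 9.96% of all genes. Of the 8, 6 differed more than 2-fold in at least 1 comparison, called or not. So did 2 of the 13 other Klf and Sp genes and 4 of the 7 neighbours of the Irx clusters described below. The share over all genes was not computed.

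Around the Irx clusters 7 other protein-coding genes were examined, and all were tested. None of them was called in the hindstomach or the colon against the forestomach, where 5.59% and 11.6% of all genes were called in either direction. Lpcat2, a phospholipid enzyme gene beyond Irx6, fell in the intestine against the forestomach (−2.34, limma adjusted p = 0.00470) and the hindstomach (−2.32, limma adjusted p = 0.0179), and it had 2.90 and 5.36 FPKM in the colon, where Irx5 was at 0.0363 FPKM or less. Slc6a3, the dopamine transporter gene on the Irx4 side of the other cluster, was higher in the intestine than in the forestomach (2.11, limma adjusted p = 0.0117). Of all genes, 5.78% and 2.47% were called lower in the intestine against the forestomach and the hindstomach, and 11.3% higher against the forestomach. No comparison of Fto, Rpgrip1l, Mmp2, Ndufs6 or Cep72 passed with all libraries. Fto, whose end lies 130.1 kb from Irx3, had between 3.31 and 6.52 FPKM across the 8 libraries.

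**Figure D5:**
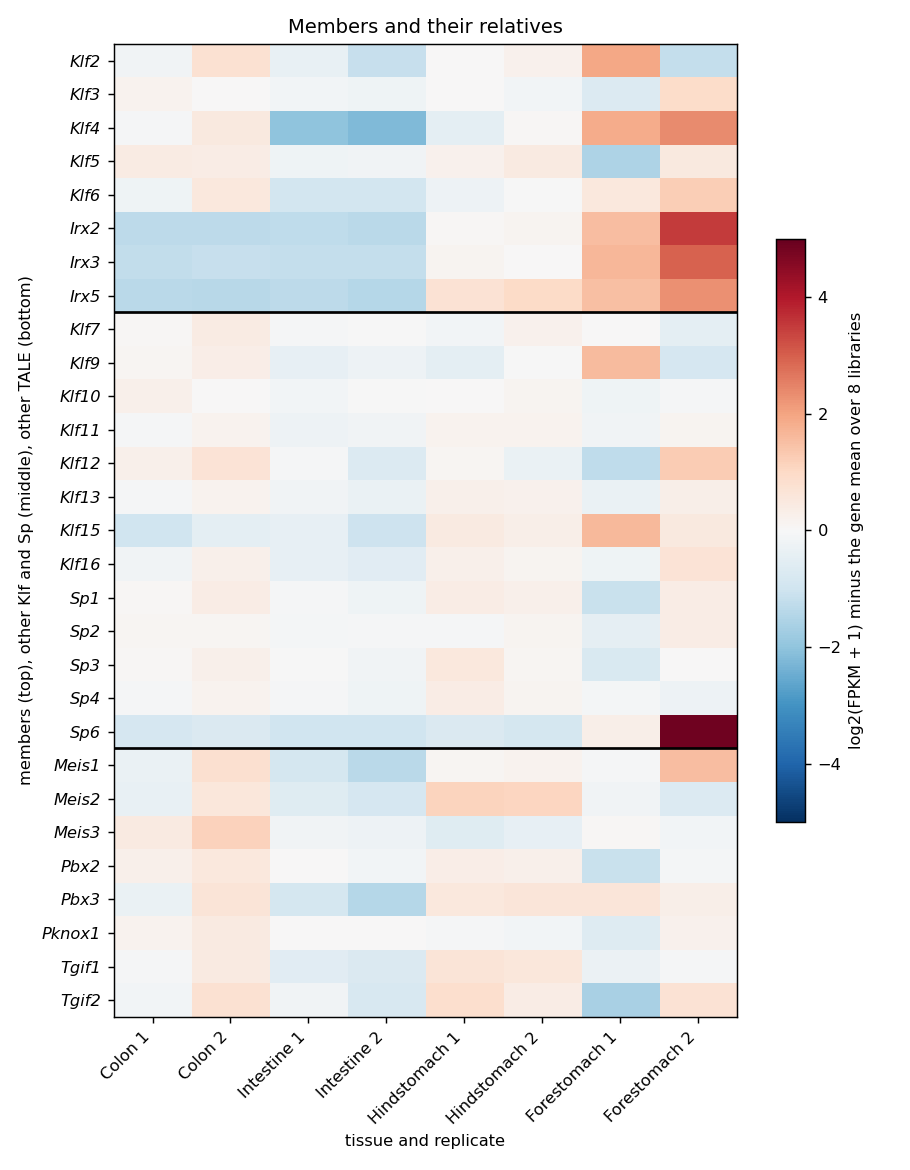
Log2(FPKM + 1) minus each gene's mean over the 8 libraries, by library, for the 8 tested genes (top), the 13 other Klf and Sp genes (middle) and the 8 other TALE genes (bottom) that were tested; red is above and blue below the gene's mean. Irx2, Irx3 and Irx5 are blue in all 4 colon and intestine libraries and reddest in forestomach replicate 2, Klf4 is bluest in the intestine, and Sp6 is dark red in forestomach replicate 2 alone (58.2 FPKM).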

How the data were processed

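Poly(A) RNA-seq libraries of E16.5 gut epithelium, 2 per tissue, were grouped by the tissue in their labels. The authors deposited FPKM per gene symbol. Per the submitters' processing notes STAR 2.4.2a and mm10 (GRCm38) were used; what computed the FPKM, with which gene models and strandedness, is not given in the sources used here. Read depth is unknown, so no counting interval is given, and FPKM lowers all genes of a library in which a few are very abundant. A further 4 columns of the table matched no listed sample and were not used.

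Values were analysed as log2(FPKM + 1), with a pseudocount of 1, for the 12894 of 23393 genes that reached 1 FPKM in 2 or more libraries. The R (4.3.3) package limma, version 3.58.1, fitted 4 tissue means per gene and moderated the variances along their trend with abundance, leaving 4 residual degrees of freedom, with Benjamini-Hochberg adjustment over all genes within each of 6 comparisons. A call needed an adjusted p under 0.05 and at least a 2-fold change. The fit was tested on simulated data with a spread taken from hindstomach, intestine and colon. That test did not cover the spread of the forestomach pair. Alternatives changed the pseudocount, the filter, the scaling, the variance model, the fold rule, the tissues and the libraries fitted, and added a replicate block. Leaving out both forestomach libraries was chosen after seeing the data.

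Named genes are the 10 members, called or most abundant relatives (up to 4 per list) and the 3 genes nearest in pattern to each called member. The members and lists were chosen with earlier results of these data known. Gene positions are from GENCODE M21, which holds 23257 of the symbols, and promoter windows from RefSeq. A gene of the TALE list is not reported here.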

Additional observations from a re-analysis of the deposited data

How the results depend on the processing

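Followed were the 24 fold changes of members called with all libraries or without forestomach replicate 1. Several settings, such as the fold rule, cannot alter the fold change itself. Over all settings 462 of the 464 recomputed values kept their direction. The exceptions were Klf3 in the intestine against the forestomach, at 0.0168 with every library scaled to the same total FPKM and 0.519 without forestomach replicate 2, beside −0.28 with all libraries and −1.09 without forestomach replicate 1; the cause was not tested. Not followed, among others, were Klf2 and Klf5 in the hindstomach against the forestomach, which reversed. Klf2 went from −0.25 with all libraries to 1.32 without forestomach replicate 1, and Klf5 from 0.87 to −0.14. The calls of Klf4 and Irx5 in the intestine against the forestomach held under all 19 alternatives run for each.

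Counts of called members moved more. For hindstomach minus forestomach the count of 2 became 1 with a pseudocount of 5, with no filter, with the same total FPKM and with the replicate block, 4 with quantile normalization, 0 in a fit of only the 2 tissues and 0 to 5 with single libraries left out. For intestine minus forestomach the count of 5 became 2 in the fit of 2 tissues and 3 to 7 with single libraries left out. For colon minus forestomach the count of 4 became 0 in the fit of 2 tissues and 1 to 6 with single libraries left out. For intestine minus hindstomach the count of 2 became 4 with a pseudocount of 0.1, in the fit of 2 tissues and without both forestomach libraries, 1 with a pseudocount of 5 or the same total FPKM, and 0 to 4 with single libraries left out. For colon minus hindstomach the count of 1 became 0 with a pseudocount of 5, with at least 5 FPKM required, with the same total FPKM and with the replicate block, 3 in the fit of 2 tissues and without both forestomach libraries, and 0 to 3 with single libraries left out. For colon minus intestine the count of 0 became 1 in the fit of 2 tissues and without both forestomach libraries, and 0 to 1 with single libraries left out.

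Where a setting leaves 1 library of a tissue, that library is assumed to vary like the others. Between colon, intestine and hindstomach the members called without forestomach replicate 2 were those called without replicate 1. Over all genes, calls for hindstomach minus forestomach numbered 721, 455 with median-of-ratios scaling, 335 with the replicate block, 350 with a pseudocount of 5, 1144 with the same total FPKM, 107 in the fit of 2 tissues and 75 to 3126 with single libraries left out. For colon minus intestine they numbered 49, 9 with the block, 93 in the fit of 2 tissues and 0 to 317 with single libraries left out. Over all settings they ran from 513 to 3949 for intestine minus forestomach (2201 as reported), 151 to 3552 for colon minus forestomach (1497), 0 to 2323 for intestine minus hindstomach (648) and 0 to 949 for colon minus hindstomach (194). Calls in the hindstomach against the forestomach were higher in 76.1% with all libraries and in 49% after median-of-ratios scaling, for the colon in 79.2% and 57%, and for the intestine against the hindstomach in 50.8% and 65.9%. The labels do not say whether libraries of equal replicate number belong together. Deviation correlations between tissues ran from −0.578 to 0.270 across genes and cannot decide it, so counts under the block are given as another fit.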
